A study of Mus musculus with 8 samples.

Results

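Mitochondria translate the few proteins of the respiratory chain that their own genome encodes on a ribosome of their own, the mitoribosome, whose RNA is made in the mitochondrion and whose proteins are all encoded in the nucleus, made in the cytosol and imported. The large subunit joins amino acids and the small subunit reads the messenger RNA. Part of the proteins descend from those of the bacterial ribosome, and part are found only in mitoribosomes. Liver is rich in mitochondria and expresses the whole set.

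The 76 genes described here are those whose symbol in the array's annotation was Mrpl or Mrps followed by a digit, out of 18193 genes with a probe set of 1 symbol. Each gene was read by its probe set of highest mean log2 signal, and all 76 passed the filter on low signals and lay above the median of the array on all 8 arrays. Member signals ran from 325 for Mrps27 to 11783 for Mrpl39. By the nomenclature of the proteins, 29 encode large-subunit proteins with a bacterial relative and 20 encode large-subunit proteins specific to mitochondria, a class that takes in Mrps30 and Mrps18a. Another 16 encode small-subunit proteins with a bacterial relative, 10 encode small-subunit proteins specific to mitochondria, and Mrps36, also a subunit of the 2-oxoglutarate dehydrogenase complex, was placed in no class.

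Liver RNA was hybridised to 8 Affymetrix Mouse Genome 430 2.0 arrays, 2 in each of 4 groups. The groups were wild-type (WT) mice of 3, 12 and 19 months and Sirt1 KO mice (MT) of 3 months, all of a mixed 129/FVB/Black Swiss background. MT mice lacked part of Sirt1, an NAD-dependent deacetylase, in every tissue, and those that reach adulthood are the few that survive development. Ages and genotypes came from the sample descriptions. The titles write W after the age on arrays described as wild type and M on those described as Sirt1 KO. These letters thus follow the genotype. The text of the study counts more mice in a group than there are arrays, and no source used here says if the RNA of several mice was pooled. What the p-values measure is thus the spread between these arrays, which may be technical.

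Array medians lay between 74.7 and 83.1 signal units. Sirt1 gave signals of 589 and 539 in young WT mice and 615 and 713 in MT mice (log2 difference 0.23, limma adjusted p = 0.674), from a probe set whose place relative to the deleted exons is not known here, so that it checks no label. The female-specific RNA Xist lay at or above the 95.2nd percentile and Y-linked probe sets at or below the 43.1st on all 8 arrays, while the methods describe the mutant mice as male.

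No mitoribosomal protein gene passed the test in any comparison. A gene was called at an adjusted p under 0.05 in the limma fit over 22519 probe sets. Between MT and WT mice of 3 months 0 of 76 members were called, against a background of 0.515% of probe sets. At 12 against 3 months the count was 0 of 76 (background 0.0133%), at 19 against 3 months 0 of 76 (background 0.0355%), and at 19 against 12 months 0 of 76 (background 0%). The moderated F test for any difference among the 4 groups also called 0 of 76 (background 0.431%). At an unadjusted p under 0.05, 5 members were higher in MT mice (6.58% of members, background 7.28%) and 0 lower (background 6.18%). At 12 against 3 months 3 were higher (3.95%, background 4.01%) and 0 lower (background 4.57%). At 19 against 3 months 5 were lower (6.58%, background 5.3%) and 0 higher (background 7.18%), and at 19 against 12 months 8 were lower (10.5%, background 4.35%) and 0 higher (background 6.39%). Reading all 131 tested probe sets of the members instead of 1 per gene also gave 0 calls in the 4 comparisons.

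The 95% confidence interval of the log2 difference, which covers only the spread between these arrays, lay within 2-fold in either direction for 75 of 76 members in MT mice and for all 76 in each age comparison. It lay within 1.5-fold for 61 members in MT mice, 64 at 12 months, 51 at 19 against 3 months and 49 at 19 against 12 months. Members differed less between paired arrays than all genes tested did, but they were also brighter. Their mean log2 signals were 8.68 (Mrps27) or more, while the filter let in means from 6.18. The part of brightness was not tested. Paired arrays differed by a median absolute log2 value of 0.07 over the members in young WT mice, 0.17 in 12-month, 0.12 in 19-month and 0.15 in MT mice, where all genes tested gave 0.16, 0.23, 0.19 and 0.23.

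**Figure D1:**
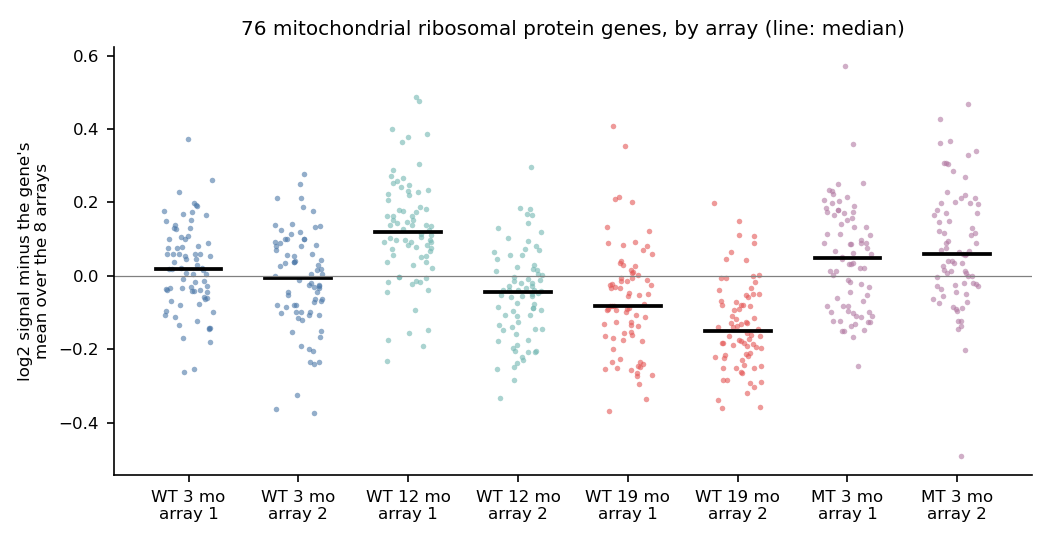
Log2 signal of each of the 76 mitochondrial ribosomal protein genes on each of the 8 arrays, minus that gene's mean over the 8 arrays (vertical axis, log2 units); each point is 1 gene and the black line is the median. The medians of both 19-month arrays, -0.08 and -0.15, are the lowest, and the 2 arrays of 12-month mice stand apart at 0.12 and -0.04.

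Most members had their lowest mean at 19 months. The 19-month group held the lowest of the 4 group means for 50 of 76 members (65.8%), against 23.8% of all genes tested. It held the highest for 7 (9.21%), against 26.6% of all genes tested. Relative to each gene's own mean, 55 and 67 members lay below it on the 19-month arrays. The corresponding counts were 32 and 39 for young WT mice and 29 and 26 for MT mice. On the 12-month arrays they were 15 and 52, so that the paired arrays of this group differed more than any other pair. Both 19-month arrays lay below all 6 other arrays for 21 members (27.6%, background 5.45%). These 21 were Mrpl1, Mrpl2, Mrpl17, Mrpl18, Mrpl21, Mrpl24, Mrpl27, Mrpl35, Mrpl39, Mrpl40, Mrpl41, Mrpl42, Mrpl45, Mrpl47, Mrpl51 and Mrpl55 of the large subunit and Mrps6, Mrps7, Mrps16, Mrps18c and Mrps28 of the small. This grouping was counted after the values were seen and carries no test.

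The comparison of 19-month with 3-month WT mice asks how the aged liver differs from the young one. The members' median log2 difference was -0.11 (-7.54%), with 55 of 76 below 0, while all genes tested had a median of 0.02 with 48.0% below 0. Arrays of the 2 groups did not overlap for 36 members that were lower (47.4%, background 21.8%) and for 9 that were higher (11.8%, background 26.4%). The median absolute log2 difference of a member was 0.15, with a median SE of 0.15, and none passed, although 5 members were lower at an unadjusted p under 0.05.

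Mrpl39, which encodes a mitochondria-specific large-subunit protein, had the smallest p. Its signals were 11783 and 11192 at 3 months, 11020 and 11282 at 12 months, 8636 and 8583 at 19 months and 9563 and 10962 in MT mice. The 19-month arrays lay below all others, at a log2 difference from 3 months of -0.42 ± 0.12 (SE, 2 arrays a group, limma adjusted p = 0.247). A second Mrpl39 probe set gave -0.37 (adjusted p = 0.290). Mrpl27, whose bacterial relative lies near the site of peptide bond formation, read 9435 and 9285 at 3 months, 9629 and 8789 at 12 months, 7038 and 7153 at 19 months and 8111 and 9092 in MT mice. It too was lowest at 19 months without overlap, by -0.40 ± 0.12 (limma adjusted p = 0.260), and its second probe set gave -0.59 (adjusted p = 0.328).

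Mrpl35, another large-subunit protein with a bacterial relative, read 4051 and 3868 at 3 months and 3079 and 3145 at 19 months (log2 difference -0.35, limma adjusted p = 0.322). Mrpl1, the protein of the mobile L1 stalk, read 1380 and 1606 at 3 months and 1110 and 1137 at 19 months (-0.41, adjusted p = 0.345), with a second tested probe set at -0.45, while the mean over all its probe sets, untested ones included, was 0.16. The lowest difference of all was that of Mrps24, a small-subunit protein, at -0.43 (limma adjusted p = 0.384), from 5051 and 5041 to 3430 and 4087. At the other end, Mrpl14, a large-subunit protein at the face between the subunits, read 2474 and 2621 at 3 months and 3586 and 2892 at 19 months (0.34, limma adjusted p = 0.421). Mrps18b gave 0.31, Mrpl36 0.21 and Mrpl34 0.21, with limma adjusted p-values of 0.508, 0.591 and 0.684. Array 1 of the 19-month group carried much of these, since without it Mrpl14 was at 0.18, Mrps18b at 0.16 and Mrpl34 at 0.13. Members of both subunits thus lay on either side of 0, with the lower side the larger.

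The classes of protein were not alike in their medians. At 19 against 3 months the median log2 difference was -0.12 for the 29 large-subunit proteins with a bacterial relative (20 below 0) and -0.19 for the 20 large-subunit proteins specific to mitochondria (15 below 0). In the small subunit, 15 of the 16 proteins with a bacterial relative were below 0, with a median of -0.12. The 10 small-subunit proteins specific to mitochondria had a median of 0.05, with 4 below 0. For these 10 the median at 19 against 12 months was -0.01 with 5 below 0, where the other 3 classes had medians of -0.17, -0.16 and -0.20. The median of these 10 turned sign without single arrays, to -0.02 at 19 against 3 months without array 1 of the 19-month group and to 0.09 at 19 against 12 months without array 1 of the 12-month group. The difference between classes was not tested.

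**Figure D2:**
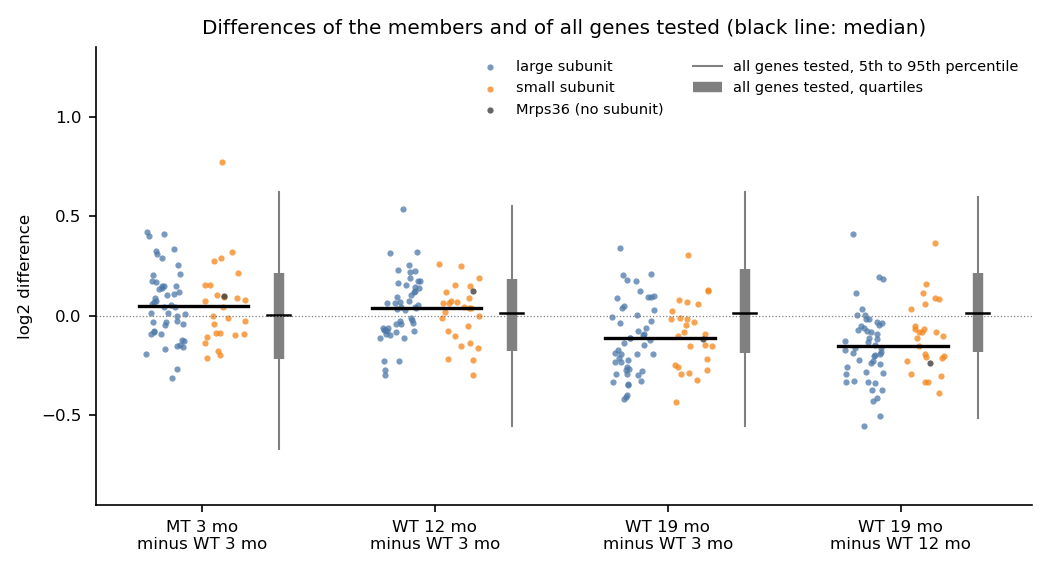
Log2 difference (vertical axis) of each of the 76 members in the 4 comparisons, with large-subunit proteins in blue, small-subunit proteins in orange and Mrps36 in black; black lines are medians over the members, and grey bars give the quartiles and the 5th to 95th percentiles of the 10976 genes tested. The members' median lies at 0.05 in MT mice, 0.04 at 12 months, -0.11 at 19 against 3 months and -0.15 at 19 against 12 months.

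Against 12-month mice the 19-month livers shared the same 19-month arrays with the comparison above. The members' median was -0.15 (-9.87%) with 62 of 76 below 0, against a median of 0.01 and 48.2% below 0 for all genes tested. For 34 members the 19-month arrays were lower without overlap (44.7%, background 17.5%), and for 3 they were higher (3.95%, background 23.8%). The size rested on array 1 of the 12-month group. Without it the median was -0.05 with 45 members below 0, and without array 2 it was -0.22.

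Mrpl42, a mitochondria-specific large-subunit protein, read 8014 and 6454 at 12 months and 5092 and 4716 at 19 months, with 5492 and 6045 at 3 months and 5364 and 5465 in MT mice. Its log2 difference between 19 and 12 months was -0.55 ± 0.14 (SE, 2 arrays a group, limma adjusted p = 0.252), and this gene was both highest at 12 months and lowest at 19 months. Its second probe set was too dim to be tested, and the mean over both gave -1.89 (limma adjusted p = 0.537), and 1.45 at 12 against 3 months (adjusted p = 0.735). Mrps18a, which despite its name encodes a protein of the large subunit, read 2308 and 2354 at 12 months and 1759 and 1537 at 19 months (-0.50 ± 0.14, limma adjusted p = 0.284). Mrpl39 and Mrpl27 each gave -0.37 (adjusted p = 0.329), but the second Mrpl27 probe set gave 0.04. The largest positive moderated t values went with differences of 0.41 for Mrpl37, 0.37 for Mrps27, 0.19 for Mrpl14 and 0.19 for Mrpl50, with limma adjusted p-values of 0.571, 0.511, 0.692 and 0.639. Without array 1 of the 19-month group Mrpl14 was at 0.04 and Mrpl37 at 0.26.

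Between 12 and 3 months the members showed no common direction that held for both 12-month arrays. Their median was 0.04 (2.93%) with 45 above and 31 below 0, and all genes tested had a median of 0.01. Arrays did not overlap for 18 members that were higher (23.7%, background 19.3%) and 13 that were lower (17.1%, background 20.8%). Without array 1 of the 12-month group the median was -0.06 with 51 members below 0, and without array 2 it was 0.10 with 17 below 0.

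Mrpl34, the small large-subunit protein related to bacterial L34, had the largest difference at 12 months. It read 1419 and 1350 at 3 months, 2372 and 1693 at 12 months, 1685 and 1511 at 19 months and 1867 and 1835 in MT mice. Young WT mice were thus the lowest group, and the 12-month difference from them was 0.53 ± 0.18 (SE, 2 arrays a group, limma adjusted p = 0.455). Without array 1 of the 12-month group it was 0.29. A second, dimmer Mrpl34 probe set gave 1.04 (adjusted p = 0.508). Mrpl48 (0.32, limma adjusted p = 0.570), Mrpl42 (0.32, adjusted p = 0.577) and Mrpl23 (0.26, adjusted p = 0.634), the last near the exit of the peptide tunnel, followed by moderated t, with Mrpl42 at 0.16 without that array. The largest negative moderated t values were those of Mrpl11 (-0.30, limma adjusted p = 0.612), Mrps27 (-0.30, adjusted p = 0.707), Mrpl54 (-0.27, adjusted p = 0.679) and Mrpl45 (-0.23, adjusted p = 0.742), of which the last is known to tether the mitoribosome to the inner membrane.

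The comparison of MT with WT mice at 3 months asks which liver transcripts depend on Sirt1. The members' median log2 difference was 0.05 (3.52%), with 45 above and 31 below 0, against 0.00 for all genes tested with 49.4% below 0. Arrays did not overlap for 26 members that were higher in MT mice (34.2%, background 24%) and for 15 that were lower (19.7%, background 21.7%). Leaving out 1 array moved the median of all 76 between 0.0237, without array 2 of young WT mice, and 0.0762, without array 1 of MT mice. The large-subunit proteins had a median of 0.05 and the small-subunit proteins one of 0.02.

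Mrps18b stood out from the other members. It encodes one of the related small-subunit and large-subunit proteins that descend from bacterial S18, and is counted here as specific to mitochondria because it does not take the place of the bacterial protein. Its signals were 1124 and 1039 in young WT mice, 1146 and 1329 at 12 months, 1478 and 1208 at 19 months and 2000 and 1707 in MT mice. Both MT arrays lay above all 6 WT arrays. The log2 difference from young WT mice was 0.77 ± 0.17 (SE, 2 arrays a group, 95% confidence interval 0.40 to 1.15, a 1.71-fold higher level), with a limma adjusted p of 0.0802, the lowest of any member in any comparison but not past the threshold. The adjusted p ranged from 0.0752 to 0.396 over the limma alternatives at the same threshold, and no second probe set reads this gene.

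Mrpl18, whose bacterial relative binds 5S ribosomal RNA, read 3606 and 3580 in young WT mice and 4598 and 4952 in MT mice. At 12 months it read 3851 and 3826 and at 19 months 3240 and 3488. The MT arrays were again above all others (0.41 ± 0.12 against young WT mice, limma adjusted p = 0.183). Mrpl43 gave 0.32 (limma adjusted p = 0.314), Mrpl34 gave 0.42 (adjusted p = 0.344) and its second probe set 0.97 (adjusted p = 0.316). Mrpl11, a protein at the base of the stalk that recruits translation factors, read 1952 and 2025 in young WT mice and 1561 and 1637 in MT mice (-0.31, limma adjusted p = 0.374), but its 4 tested probe sets ran from -0.31 to 0.74. Mrps9 likewise gave -0.21 by its brightest probe set and 0.27, 0.32 and -0.03 by dimmer ones. Mrps15 (-0.20) and Mrpl39 (-0.17) were the others of largest negative moderated t.

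Over the 4 groups the smallest F-test adjusted p-values were 0.168 for Mrps18b, 0.203 for Mrpl18 and 0.236 for Mrpl42. Mrpl12, the stalk protein that also binds the mitochondrial RNA polymerase, read 7610 and 8150 in young WT mice, 7590 and 7528 at 12 months, 7986 and 6565 at 19 months and 8913 and 8438 in MT mice. Its MT difference was 0.14 (limma adjusted p = 0.710) and its 19-month difference -0.12 (adjusted p = 0.760). Mrps36 read 1351 and 1133 in young WT mice and 1341 and 1310 in MT mice (0.10, limma adjusted p = 0.883).

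**Figure D3:**
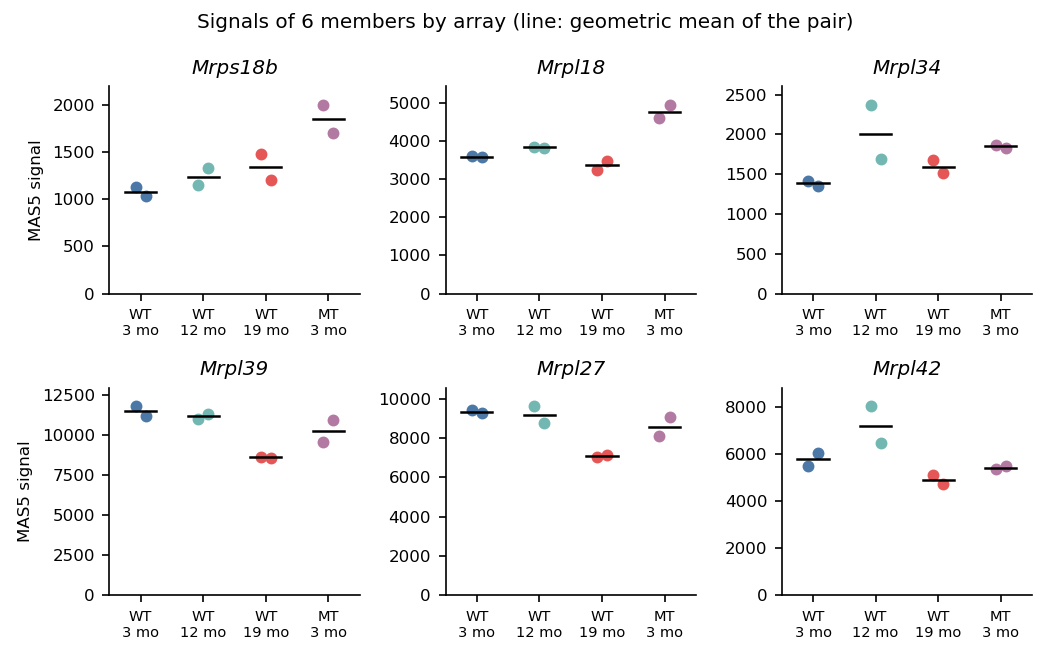
MAS5 signal (vertical axis, linear from 0) of 6 members on each array of the 4 groups; points are single arrays and the black line is the geometric mean of the pair. Mrps18b and Mrpl18 are highest in MT mice, Mrpl39 and Mrpl27 are lowest at 19 months, and the means of Mrpl42 and Mrpl34 are highest at 12 months.

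Different probe sets of 1 member often disagreed. Of 32 members with at least 2 tested probe sets, all their probe sets had the same sign for 15 in MT mice, 17 at 12 months, 17 at 19 against 3 months and 16 at 19 against 12 months. Probe sets that differ in sign can read different transcript ends, and which is the better measure was not tested.

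The promoters of mitoribosomal protein genes are known for sites of NRF1, of the ETS factor GABPA and of YY1, factors that switch on nuclear genes for mitochondrial proteins. Promoters from 250 bases before to 50 bases after the start (RefSeq, GRCm38.p6) were matched for 67 of the 76 members and searched on both strands for a core of each factor, of which none contains another. The NRF1 core GCGCATGC was in 8 members (11.9%, against 3.05% of 27025 genes), the ETS core CCGGAAG in 25 (37.3% against 9.93%) and the YY1 core AAGATGGC in 12 (17.9% against 3.19%). At least 1 of the 3 was in 37 members (55.2% against 14.9%), while the E-box CACGTG, the site of clock factors, was in 5 (7.46% against 8.09%). A match is only a description of the letters and no evidence of binding. The 27025 genes were not limited to those expressed in liver, so the shares do not set the members apart from other expressed genes. The promoters of 6 members, those of smallest p in each comparison and Mrpl18 and Mrpl27, which came second in MT mice and at 19 against 3 months, are shown 5′ to 3′ on the strand of the gene, with matches to the NRF1, ETS and YY1 cores in capitals. They lie at chr17:35916391-35916690 (Mrps18b, minus strand), chr17:12916042-12916341 (Mrpl18, minus strand), chr16:84735195-84735494 (Mrpl39, minus strand), chr8:71464676-71464975 (Mrpl34, plus strand), chr11:94653541-94653840 (Mrpl27, plus strand) and chr10:95501900-95502199 (Mrpl42, minus strand).
Mrps18b: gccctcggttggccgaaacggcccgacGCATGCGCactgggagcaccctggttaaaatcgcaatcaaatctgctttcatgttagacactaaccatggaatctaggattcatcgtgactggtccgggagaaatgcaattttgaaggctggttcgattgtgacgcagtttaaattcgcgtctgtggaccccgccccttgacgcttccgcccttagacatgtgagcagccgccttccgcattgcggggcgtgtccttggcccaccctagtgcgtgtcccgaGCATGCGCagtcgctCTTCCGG
Mrpl18: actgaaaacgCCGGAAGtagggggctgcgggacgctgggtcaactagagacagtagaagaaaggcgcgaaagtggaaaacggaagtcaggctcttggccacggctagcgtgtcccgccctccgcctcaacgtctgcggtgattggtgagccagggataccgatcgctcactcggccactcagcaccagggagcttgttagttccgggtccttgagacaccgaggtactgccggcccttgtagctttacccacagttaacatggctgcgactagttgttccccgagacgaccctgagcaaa
Mrpl39: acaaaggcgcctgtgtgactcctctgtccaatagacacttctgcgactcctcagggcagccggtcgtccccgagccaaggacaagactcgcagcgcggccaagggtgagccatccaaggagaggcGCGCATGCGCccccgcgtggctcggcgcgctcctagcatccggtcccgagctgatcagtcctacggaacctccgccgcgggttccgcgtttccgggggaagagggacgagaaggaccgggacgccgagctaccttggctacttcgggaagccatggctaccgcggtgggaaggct
Mrpl27: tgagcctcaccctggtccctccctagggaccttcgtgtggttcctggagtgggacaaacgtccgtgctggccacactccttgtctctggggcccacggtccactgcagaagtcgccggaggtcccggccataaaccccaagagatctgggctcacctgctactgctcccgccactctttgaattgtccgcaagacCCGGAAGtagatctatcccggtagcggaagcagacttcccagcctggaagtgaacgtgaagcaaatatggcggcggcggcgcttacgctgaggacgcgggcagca
Mrpl42: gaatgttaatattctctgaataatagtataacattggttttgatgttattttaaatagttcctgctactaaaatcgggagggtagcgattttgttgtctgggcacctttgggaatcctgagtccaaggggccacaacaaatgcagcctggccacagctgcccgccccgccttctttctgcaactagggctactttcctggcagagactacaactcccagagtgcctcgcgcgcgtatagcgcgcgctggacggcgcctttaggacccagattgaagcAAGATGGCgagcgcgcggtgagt
Mrpl34: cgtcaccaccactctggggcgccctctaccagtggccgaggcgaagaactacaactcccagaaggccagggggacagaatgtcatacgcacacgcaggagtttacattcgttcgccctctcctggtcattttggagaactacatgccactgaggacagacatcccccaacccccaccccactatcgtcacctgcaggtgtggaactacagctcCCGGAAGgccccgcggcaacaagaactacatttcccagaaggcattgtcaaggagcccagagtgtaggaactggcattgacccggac
Mrps18b and Mrpl39 hold an NRF1 core, Mrps18b, Mrpl18, Mrpl27 and Mrpl34 an ETS core and Mrpl42 a YY1 core.

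Other genes of mitochondrial translation also had 0 calls. The 4 mitoribosomal proteins with other symbols were all below 0 at 19 against 3 months, with a median log2 difference of -0.29. Among them Dap3, a GTP-binding protein of the small subunit, read 2388 and 2297 at 3 months and 1934 and 1773 at 19 months (-0.34, limma adjusted p = 0.578), and Chchd1 gave -0.33 (adjusted p = 0.495). Of 22 mitoribosome assembly and RNA modification genes, 15 were below 0 at 19 months (median -0.08). Malsu1, which keeps the subunits apart during assembly, read 2919 and 3192 at 3 months and 2310 and 2082 at 19 months (-0.48, limma adjusted p = 0.239). Of 12 translation factors 10 were below 0 (median -0.08), with Gfm1, the elongation factor that moves the ribosome along, at -0.43 (limma adjusted p = 0.404). Of 18 tested mitochondrial aminoacyl-tRNA synthetases and related genes 11 were below 0 (median -0.07). Aars2, the alanyl-tRNA synthetase, was at 0.54 (limma adjusted p = 0.480). The 14 mitochondrial transcription and biogenesis regulators took in Sirt1 itself, at 0.24 at 19 against 3 months by the probe set described above. Of these 14, 10 were above 0 at 19 months, with a median of 0.14, but the largest single difference was below 0. Ppargc1b, a coactivator of mitochondrial genes, read 957 and 1337 at 3 months and 596 and 649 at 19 months (-0.86, limma adjusted p = 0.308), and its relative Ppargc1a gave -0.61 at 19 months (adjusted p = 0.494) and -0.99 at 12 months (adjusted p = 0.452). Esrra, a nuclear receptor for mitochondrial genes, read 402 and 372 at 3 months, 917 and 661 at 12 months and 834 and 559 at 19 months (1.01 and 0.82, limma adjusted p = 0.297 and 0.263), and was 0.53 above 3 months at 19 months without array 1 of that group.

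In MT mice Mterf4, which brings an RNA methyltransferase to the assembling mitoribosome, was the nearest of these genes to the threshold on the lower side. It read 685 and 832 in young WT mice and 473 and 412 in MT mice (-0.77 ± 0.17, limma adjusted p = 0.0850), a size close to that of Mrps18b in the other direction. Tufm, the elongation factor that delivers transfer RNA, gave -0.34 (limma adjusted p = 0.347), Qrsl1, of the enzyme that makes glutaminyl-tRNA, 0.54 (adjusted p = 0.255), and Esrra 0.49 (adjusted p = 0.441). At 12 months Sirt3, the mitochondrial deacetylase, read 3592 and 4311 against 2465 and 2724 at 3 months (0.60, limma adjusted p = 0.297). Aars2 gave 0.63, the initiation factor Mtif3 0.39 and the helicase Dhx30 0.36 at that age, with limma adjusted p-values of 0.578, 0.599 and 0.605.

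**Figure D4:**
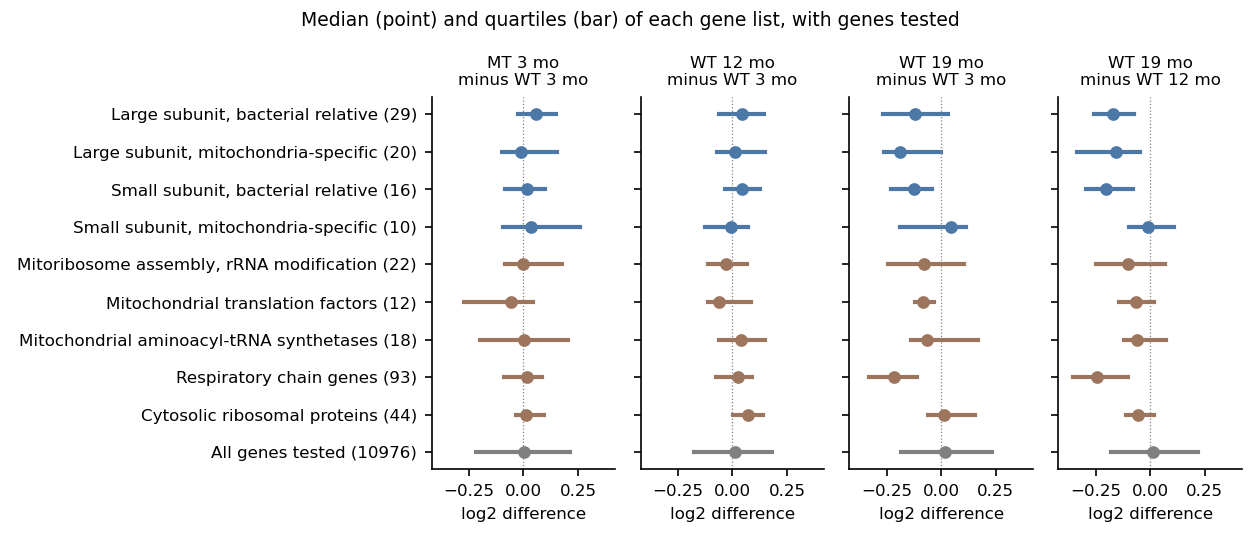
Median (point) and quartiles (bar) of the log2 difference (horizontal axis) for the 4 classes of members, other genes of mitochondrial translation, respiratory chain genes, cytosolic ribosomal proteins and all genes tested, in the 4 comparisons; numbers in brackets are genes tested. At 19 against 3 months respiratory chain genes have the lowest median, -0.22, cytosolic ribosomal proteins lie at 0.01, and the large-subunit classes lie at -0.12 and -0.19.

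Respiratory chain genes, which the nucleus encodes and the mitoribosome's products join, were further below 0 at 19 months than the members. Of 93 tested, 83 were below 0 at 19 against 3 months (median log2 difference -0.22) and 84 at 19 against 12 months (-0.24), with 0 calls, although 31 (33.3%) and 33 (35.5%) were lower at an unadjusted p under 0.05, against 6.05% and 5.31% of all genes tested. In MT mice and at 12 months their medians were 0.02 and 0.03. Ndufaf4, an assembly factor of complex I that the symbol patterns of this list took in, was called higher in MT mice (0.90, limma adjusted p = 0.0256). The 44 tested cytosolic ribosomal proteins, which build the ribosome outside mitochondria, had a median of 0.01 at 19 against 3 months with 21 below 0, and of -0.06 at 19 against 12 months with 30 below 0. The differences between these lists and the members were not tested.

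In whole liver, fewer cells of a type and less RNA per cell cannot be told apart. At 19 against 3 months, where 55 of 76 members were below 0, 8 of 10 hepatocyte markers were below 0 as well (median log2 difference -0.21), and their summed signal was 364060 to 392100 at 19 months against 426400 to 448040 at 3 months. All 10 Kupffer cell markers were above 0 (median 0.65), with a summed signal of 30431 to 48111 against 25826 to 26691. All 5 tested B and plasma cell markers were above 0 (median 2.74, 1 called higher), and the summed signal of the list was 7699 to 8498 against 1112 to 1490. All 3 tested neutrophil markers were above 0 (median 1.11), and the summed signal of the 6 on the array was 1667 to 1996 against 844 to 943. Of 4 tested T and NK cell markers 3 were below 0 (median -0.34). Endothelial cell markers were above 0 for 5 of 7 (median 0.15), and stellate cell markers below 0 for 4 of 6 tested (median -0.04). The 1 tested bile duct marker was at -0.20. At 19 against 12 months 9 of 10 hepatocyte markers were below 0 (median -0.24) and 10 of 10 Kupffer cell markers above 0 (0.70). In MT mice 9 of 10 hepatocyte markers were above 0 (median 0.11) and 8 of 10 Kupffer cell markers below 0 (-0.28). There all 3 tested neutrophil markers were above 0 (0.84) and all 4 tested T and NK cell markers below 0 (-0.46). Endothelial cell markers were below 0 for 5 of 7 (-0.12), and stellate cell markers above 0 for 4 of 6 tested (0.17). B and plasma cell markers were below 0 for 3 of 5 tested (-0.03), and the 1 tested bile duct marker was at 0.335. At 12 against 3 months 8 of 10 hepatocyte markers (median 0.03) and 4 of 5 B and plasma cell markers were above 0 (1.65, 1 called higher). Of 10 Kupffer cell markers 9 were below 0 (-0.14). The 3′ to 5′ log2 difference of the pyruvate carboxylase control, a sign of RNA integrity, was 4.77 to 5.86 at 19 months and 4.54 to 5.10 at 12 months. It was 3.88 to 4.25 in young WT mice and 3.88 to 3.93 in MT mice. That of Gapdh was -0.44 to -0.39 at 19 months, -0.46 to -0.34 at 12 months, -0.59 to -0.51 in young WT mice and -0.62 to -0.38 in MT mice. For beta-actin the ranges, in the same order, were 1.23 to 1.25, 1.26 to 1.31, 1.09 to 1.22 and 0.97 to 1.48. The part of these differences in the members' values was not tested.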

How the data were processed

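The authors deposited MAS5 signal intensities on a linear scale for 45101 probe sets on 8 arrays, by a MAS5 release that no source used here names. Control probe sets (64) were left out. Symbols came from the platform annotation, 4 member probe sets shared with other genes were left out, and all 76 member symbols were found in RefSeq. Signals under 1 were set to 1 and put on the log2 scale. The brighter 50% of probe sets by mean log2 signal (22519, means of 6.18 or more) entered 1 limma fit of all 4 groups (version 3.58.1, R 4.3.3; lmFit, eBayes with a trend; residual df 4, prior df 5.37), with two-sided p-values adjusted by Benjamini-Hochberg. Each SE and confidence interval came from this fit, so its spread is pooled over all 4 groups and moderated by the trend. An exact permutation test of 2 against 2 arrays cannot go below 0.333 and was not used. The fit was run on simulated data with planted changes of 2-fold and 4-fold, sizes that no member reached by its probe set of highest mean signal. It thus does not show if smaller differences would be called. Members, lists and classes were chosen with earlier results of these data known. In each comparison the 4 members of largest positive and negative moderated t, the 3 of smallest F-test p, Mrpl12, Mrps36 and the leading gene of each related list were named; other members were named after their values were seen. Detection calls were not used here. The number of arrays limits the precision. Figures were drawn with matplotlib 3.10.9.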

Additional observations from a re-analysis of the deposited data

How the results depend on the processing

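The settings were varied in 20 ways (normalization, log offset, filter, groups in the fit, variance prior, probe set choice, test, threshold, replicate block and leaving out each array). With all arrays kept, 0 members were called in the age comparisons. The F test also called 0 where it was run, which leaves out fits of only the groups compared and the methods' t-test. In MT mice the count was 1 (Mrps18b) under the methods' t-test (p under 0.05 and fold over 1.5) and 1 at an adjusted p under 0.10. The replicate block gave 0 calls in MT mice, as without it. Deviations of arrays with the same number in 2 groups had correlations from -0.03 to 0.14 over 6 pairs of groups. The highest, 0.14, was that of 12-month with 19-month mice. Whether arrays of the same number were handled together was not tested. Leaving out 1 array moved 24 of 58 named-gene values by over 1.5 times or turned their sign. The members' median in MT mice ran from 0.0211 to 0.0762 over the alternatives. That at 19 against 3 months ran from -0.15 to -0.08, with 47 to 58 below 0. Leaving out 1 array moved the median at 12 against 3 months between -0.0619 and 0.101, with 17 to 51 members below 0, and that at 19 against 12 months between -0.219 and -0.051, with 45 to 66 below 0; the cause was not tested. Of 58 values of named genes, 9 turned sign somewhere. With the mean over all probe sets of a gene, Mrpl11 and Mrps9 in MT mice were 0.0327 and 0.0881 and Mrpl1 at 19 against 3 months was 0.16. Without single arrays, Mrps36 ran from -0.0272 to 0.227 in MT mice, from -0.18 to 0.425 at 12 months and from -0.243 to 0.0107 at 19 months, Chchd1 from -0.429 to 0.0865 at 12 months, Mrpl12 from -0.263 to 0.0201 at 19 months and Dap3 from -0.466 to 0.099 in MT mice.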
